A study of Mus musculus with 4 samples.

Results

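The miRNAs miR-222 and miR-221 were followed over the first 8 days of mouse cortical neurons in culture. The probes were taken by name: a probe counted as a member when one of its names was exactly mmu-miR-222 or mmu-miR-221. This rule found 2 of the 1030 mouse miRNA probes on the array, 1 per miRNA, each spotted 4 times. Both probes also carry the human and rat names of the same miRNA.

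The cultures came from cortices of Swiss Albino embryos at gestation day 15 and were grown without treatment in serum-free neuronal medium on poly-d-lysine. The harvest days were 2, 4, 6 and 8 (called Day 2 to Day 8 below), and total RNA of 4 separate experiments was pooled for each day according to the methods. Each pool was labelled with the dye Hy3 and hybridised to 1 array of locked nucleic acid probes, so each day is a single measurement with no replicate. The ± values below are SDs over the 4 spots of 1 array and hold none of the spread between cultures, and all comparisons with Day 2 share the same Day 2 array.

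A miRNA is a short RNA that guides a silencing complex to messenger RNAs, mostly through pairing of its seed, the bases close to its 5′ end. miR-221 and miR-222 are processed from neighbouring hairpins and share their seed, and in human cells both repress the cell cycle inhibitor CDKN1B (p27Kip1) and the receptor KIT. They are also known from blood vessel endothelium, and in the rat cell line PC12 they are induced by nerve growth factor.

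The mature sequences show what the members share. They are given 5′ to 3′ from RefSeq (mouse build GRCm38.p6), with the seed, bases 2 to 8, in capitals, and miR-1928 is shown because it is the only other mature mouse entry with this seed among 1738 searched.
mmu-miR-222-3p: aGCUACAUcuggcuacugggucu
mmu-miR-221-3p: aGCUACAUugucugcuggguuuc
mmu-miR-1928: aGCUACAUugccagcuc

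The members have the same first 8 bases, differ first at base 9, and are equal at 11 of 23 positions when aligned from the 5′ end. In the same annotation both hairpins lie on the minus strand of the X chromosome, Mir222 at chrX:19146893-19146971 and Mir221 at chrX:19146294-19146388, with 504 bases between them. No other annotated gene overlaps either hairpin. The nearest neighbours are the lncRNA gene Gm14636, 9499 bases above, and the pseudogene Gm5383, 203059 bases below. miR-1928 comes from chromosome 1.

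Both members gave a brighter signal on every later day than on Day 2. The background-subtracted intensity of miR-222 averaged 390 ± 8.37 on Day 2, 850 ± 42.7 on Day 4, 737 ± 26.6 on Day 6 and 1000.4 ± 19.7 on Day 8 (SD, 4 spots). Its spots ran between 379 and 399 on Day 2, between 797 and 901 on Day 4, between 714 and 774 on Day 6 and between 976 and 1024 on Day 8. All 12 later spots were thus brighter than the brightest Day 2 spot, and Day 6 was the dimmest of the later days.

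miR-221 averaged 231 ± 29.5 on Day 2, 443 ± 15.4 on Day 4, 391 ± 32.2 on Day 6 and 480 ± 41.3 on Day 8. Its spots ran between 200 and 271 on Day 2, between 430 and 465 on Day 4, between 346 and 415 on Day 6 and between 436 and 531 on Day 8. The order of the days was the same as for miR-222, and again no later spot overlapped with Day 2. The study's detection threshold was a background-subtracted intensity of 300. miR-222 passed it on all 4 arrays, whereas miR-221 was under it on Day 2 and above it on the other days.

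**Figure D1:**
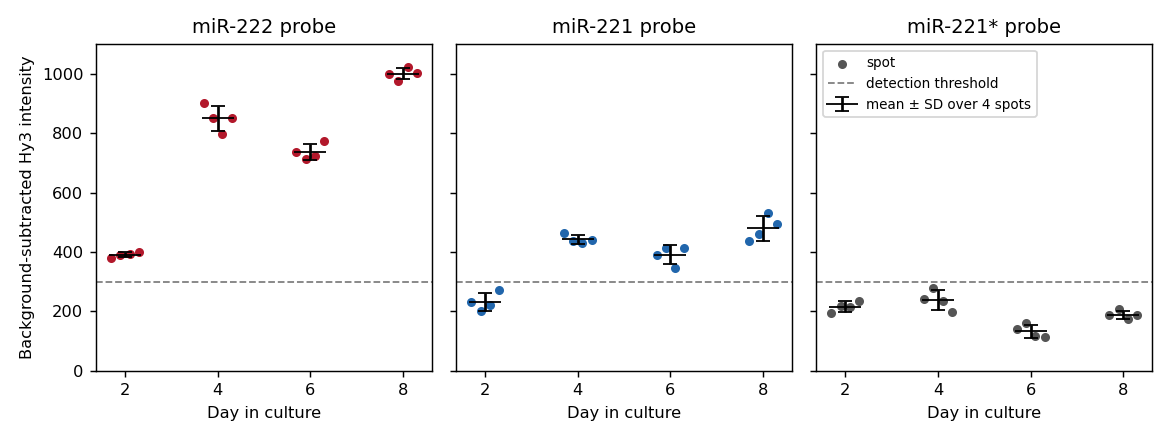
Background-subtracted Hy3 intensity (y axis) by day in culture (x axis) for miR-222, miR-221 and the passenger arm miR-221*. Points are single spots, bars are the mean ± SD over 4 spots of 1 array, and the dashed line is the threshold of 300. Both members lie above their Day 2 spots on each later day, while miR-221* stays under the threshold.

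As a ratio of these intensities, miR-222 was 2.18-fold higher on Day 4, 1.89-fold higher on Day 6 and 2.57-fold higher on Day 8 than on Day 2. The same ratios of miR-221 were 1.91, 1.69 and 2.07. These ratios carry the brightness of the whole array with them. The mean intensity over all mouse probes was 1524, 1653, 1275 and 1558 for Days 2, 4, 6 and 8, so the Day 6 array was the dimmest altogether.

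For comparison between days the arrays were therefore quantile normalised after normexp background correction, and the signal log ratio (SLR) was taken as the log2 difference from Day 2. Over the 419 mouse miRNA probes that reached 300 on at least 1 array, the SLR had a median of -0.01 for Days 4 and 6 and of -0.03 for Day 8. In the order of Days 2, 4, 6 and 8, the normalised log2 signals of miR-222 were 9.05, 9.80, 10.08 and 10.02, and those of miR-221 were 8.54, 9.02, 9.34 and 9.18.

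For miR-222 the SLR reached 0.75 ± 0.07 by Day 4, 1.03 ± 0.05 by Day 6 and 0.97 ± 0.03 by Day 8 (± SD between spots). These values ranked 17, 14 and 19 from the highest of the 419 detected probes. The SLR of miR-221 was 0.48 ± 0.13, 0.80 ± 0.16 and 0.64 ± 0.16 on the same days, with ranks 44, 29 and 43. Since the Day 2 signal of miR-221 was under the threshold, its change is also given as a bound against the lowest normalised signal of a probe with all spots at 300. By this bound Day 4 was at least 1.15-fold higher than Day 2. The bound for Day 6 was at least 1.43-fold higher, and for Day 8 at least 1.28-fold higher.

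The study called a miRNA changed past an SLR of 0.6. On Day 4, miR-222 alone of the members passed this value, against 7.16% of all detected probes. On Day 6 both members passed, against 9.79% of the detected probes, and on Day 8 both passed, against 10.7%. On each of the 3 days every spot of both members exceeded every Day 2 spot after normalisation, which held for 18.6% of the detected probes on Day 4, 20.8% on Day 6 and 30.8% on Day 8. With 1 array a day, no test of these single comparisons exists.

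**Figure D2:**
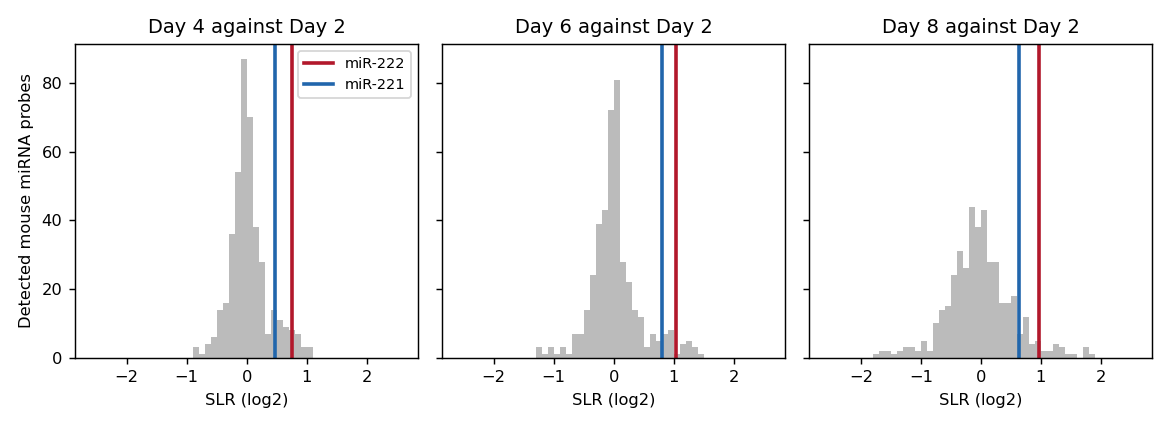
Number of detected mouse miRNA probes (y axis) by SLR against Day 2 (x axis, log2, bins of 0.1) for Day 4, Day 6 and Day 8. The lines mark miR-222 and miR-221, which lie in the upper tail on all 3 days, miR-222 to the right of miR-221.

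The size of these values differed between background corrections. The normexp model placed the background level at -236, -70.6, -38.9 and -42.0 on Days 2, 4, 6 and 8. On the same days 352, 8, 0 and 0 of 12312 spots had a local background more than 100 above their foreground. The spots of the members were not among them, with a local background between 68 and 78 on Day 2. With plain background subtraction and the same quantile normalisation, the SLR of miR-222 was 0.95, 1.27 and 1.20 on Days 4, 6 and 8, and that of miR-221 was 0.70, 1.12 and 0.92.

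Across the 16 combinations of background correction, scaling and spot summary that were run, the one above and the deposited value table included, the SLR of miR-222 on Day 8 lay between 0.70 and 1.72 and was above 0.6 in all 16. On Day 6 it was above 0.6 in 14 and on Day 4 in 12. The SLR of miR-221 was above 0.6 in 7 of the 16 on Day 4, in 12 on Day 6 and in 11 on Day 8. It was below 0 in 1 combination on Day 4 and in 2 on Day 6, all of them with normexp and without quantile normalisation. The 16 include scalings combined with background subtraction, which were added after seeing the data. In these miR-221 was above 0.6 in each on Day 8, and in all but spike-in controls on Days 4 and 6. The scalings moved the other probes as well, so 0.6 does not mean the same in each combination. On Day 8 the median SLR of all detected probes lay between -0.25, for normexp without normalisation, and 0.41, for endogenous controls with background subtraction. The methods name background-subtracted signals scaled to the endogenous controls of the array. Processed in this way, the SLRs of miR-222 were 1.33, 1.64 and 1.72 on Days 4, 6 and 8 and those of miR-221 were 1.15, 1.49 and 1.42, all above 0.6, while the median of all detected probes moved to 0.36, 0.34 and 0.41. With normexp and the same scaling they were 0.79, 1.07 and 1.12 for miR-222 and 0.40, 0.68 and 0.57 for miR-221, and the median of all detected probes was 0.18, 0.13 and 0.18.

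**Figure D3:**
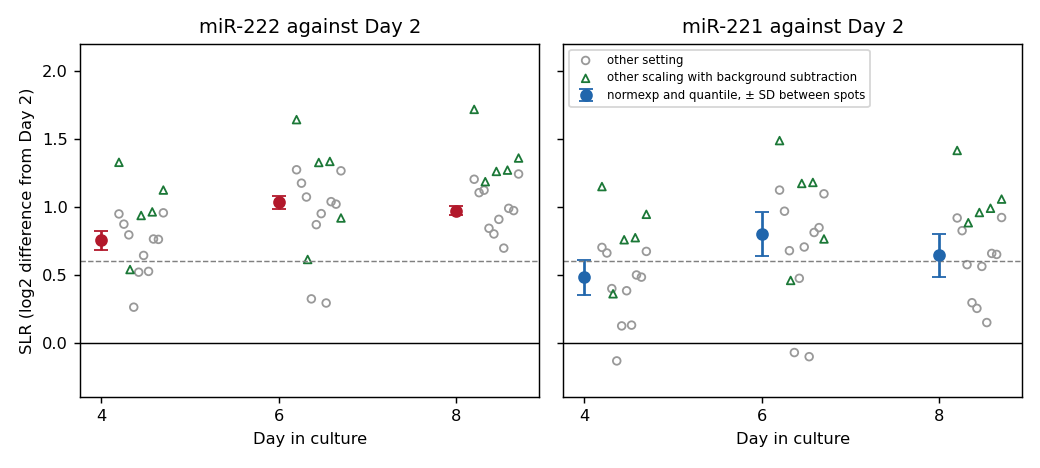
SLR against Day 2 (y axis, log2) on Days 4, 6 and 8 (x axis) for miR-222 and miR-221. Filled points are normexp with quantile normalisation, with bars of 1 SD between spots. Circles are other settings, triangles are other scalings combined with background subtraction, and the dashed line is 0.6. On Day 8 all points of miR-222 are above the dashed line, while those of miR-221 lie on both sides of it.

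After quantile normalisation the step of Day 4 over Day 2 was larger than either later step in both members. Between Day 6 and Day 4 miR-222 differed by 0.28 ± 0.08 and miR-221 by 0.32 ± 0.11 on the log2 scale, and in both the spots of the days did not overlap, as in 18.4% of the detected probes. This step turned round without scaling, where Day 6 was under Day 4 for both. Between Day 8 and Day 6 the differences were -0.06 ± 0.05 for miR-222 and -0.16 ± 0.15 for miR-221, with overlapping spots. The order of Day 8 and Day 6 differed between settings. Day 8 was above Day 6 in 6 of the 16 for miR-222 and in 4 of the 16 for miR-221. With endogenous controls after normexp the Day 8 SLR of miR-222 was 1.12, against 1.07 on Day 6, and that of miR-221 was 0.57, against 0.68. With spike-in controls after normexp miR-222 had 0.84 on Day 8, against 0.32 on Day 6, its largest step there. The first step of miR-221 differed between settings too. With the same spike-in controls its SLR was -0.14 on Day 4. With median scaling after normexp miR-221 had 0.12 on Day 4 and 0.47 on Day 6, so its larger step came after Day 4. After quantile normalisation neither later step passed 0.6 in either member, whereas 0.955% of detected probes were higher by more than 0.6 on Day 6 than on Day 4 and 1.91% on Day 8 than on Day 6.

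The brightness of different probes cannot be set against each other. Their changes can, but the sizes of those changes depended on the background correction. The SLR of miR-222 minus that of miR-221 came to 0.27 ± 0.15, 0.23 ± 0.17 and 0.33 ± 0.16 for Days 4, 6 and 8, so miR-222 had the higher SLR by 1.36 to 2.03 SDs between spots. This order was found in all 16 combinations on each day. The differences ran between 0.18 and 0.40 on Day 4, 0.15 and 0.40 on Day 6, and 0.28 and 0.55 on Day 8. These are not 16 separate checks. Scalings by 1 value per array cancel in the difference, so they give the same difference for a given background correction. With endogenous controls the Day 4 SLRs of miR-222 and miR-221 were 0.79 and 0.40 after normexp. After background subtraction they were closer together, at 1.33 and 1.15. All combinations rest on the same 4 arrays and on a Day 2 signal of miR-221 under the threshold. After Day 4 the steps of the members differed by less than the SD between spots, by -0.04 ± 0.14 between Day 6 and Day 4 and 0.10 ± 0.15 between Day 8 and Day 6. The slope of the difference over the 4 days was 0.05 log2 per day, with p = 0.167 in a two-sided exact permutation test over the 24 orders of the days, whose smallest possible p is 0.0833.

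A linear trend over the 4 arrays was tested across days. By limma, the log2 signal of miR-222 had a slope of 0.16 per day (SE 0.05, limma adjusted p = 0.0855 over the 419 probes). For miR-221 the slope was 0.11 per day (SE 0.04, limma adjusted p = 0.106). Neither passed 0.05 after Benjamini-Hochberg adjustment, as 3.58% of the detected probes did with a positive slope and 13.1% in either direction, and both were among the 14.6% with a positive slope and an unadjusted p under 0.05. With endogenous controls and background subtraction both slopes passed, with limma adjusted p = 0.00975 for miR-222 and 0.0164 for miR-221. That setting was added after seeing the data and was the only 1 of 20 alternatives in which the slope of miR-221 passed. In that setting 83 of the 419 detected probes rose and 14 fell past 0.05, against 15 and 40 with normexp and quantile normalisation. The slope of miR-222 passed in 6 of its 21 alternatives. With normexp and quantile normalisation the slopes of the members ranked 18 and 37 from the highest. In the two-sided exact permutation test over the day orders, each slope had p = 0.167, where 0.0833 is the smallest possible. Without the Day 2 array the slopes were 0.05 for miR-222 and 0.04 for miR-221, with limma adjusted p = 0.330 and 0.492.

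The passenger arms and the third miRNA with the seed gave no signal over the threshold on any array. The probe of miR-221*, the arm cut from the other strand of the miR-221 hairpin, averaged 216 on Day 2, 239 on Day 4, 133 on Day 6 and 189 on Day 8. The mouse probe of miR-222* averaged 5.43, 11.3, 23.2 and 22.1 on the same days and the rat probe of that arm 59.9, 54.1, 64.8 and 77.5, all under the highest negative control value of the arrays, which was 139. miR-1928 averaged -32.5, 31.4, 27.4 and 51.1, with 1 of its Day 2 spots at -249. No SLR is drawn from these probes.

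The profiles most like those of the members were sought among the other 418 detected probes, by the root mean square difference of log2 signals after each was centred on its own mean over the 4 arrays. Closest to miR-222 were miR-136* at 0.02, miR-433 at 0.04, miR-127* at 0.06, miR-376a at 0.06 and miR-127 at 0.07, where the median of all probes was 0.43. Closest to miR-221 were miR-369-5p at 0.05, miR-376a* at 0.05, miR-434-3p at 0.06, miR-379 at 0.06 and miR-381 at 0.06, with a median of 0.33. The members themselves were 0.13 apart, so that miR-221 was the 21st closest to miR-222 and miR-222 the 24th closest to miR-221.

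All 10 of these neighbours come from 1 part of chromosome 12, the imprinted domain between the genes Dlk1 and Dio3 (chr12:109452485-110281097, GRCm38.p6), whose miRNAs are expressed from the maternal chromosome. Of the detected probes, 328 could be placed by name in RefSeq, and 56 of them, 17.1%, lie in the domain. The domain was looked at after the neighbours had been seen, and the likeness rests on 4 points that share their arrays. Over the other settings between 6 and 10 of the 10 nearest probes came from the domain. The 56 domain probes had median SLRs of 0.26, 0.34 and 0.37 for Days 4, 6 and 8.

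**Figure D4:**
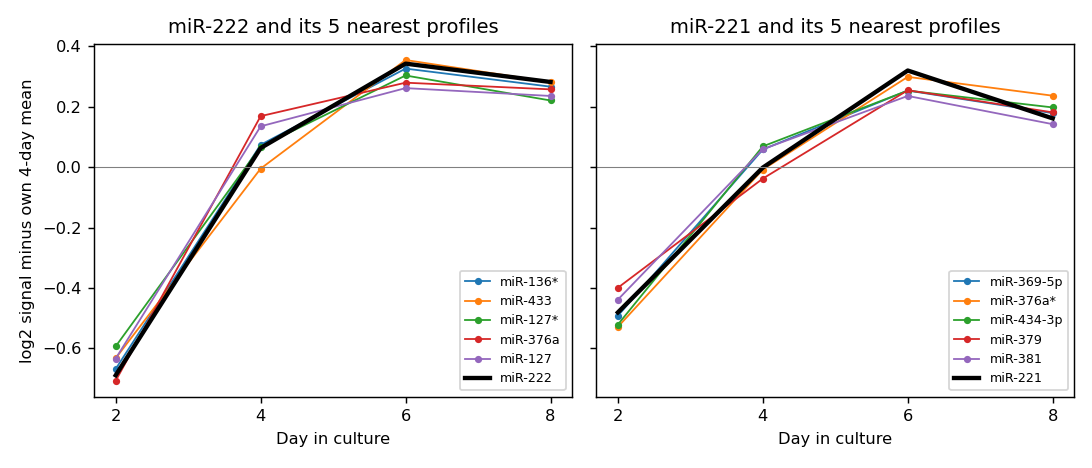
Log2 signal minus its own mean over the 4 arrays (y axis) by day in culture (x axis) for miR-222 and miR-221 (black) and the 5 detected miRNAs closest to each (coloured). All are lowest on Day 2 and highest on Day 6.

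The other miRNAs of chromosome X had SLRs around 0. Over the 37 detected X-linked miRNAs beside the members, the SLR had a median of -0.01 for Day 4, -0.05 for Day 6 and -0.14 for Day 8. On Day 8, 3 of the 37 were above 0.6, against 10.7% of all detected probes. A further 3 were below -0.6, for which no share over all detected probes was taken. By the limma trend, 1 rose (miR-2137) and 2 fell (miR-106a and miR-20b) with an adjusted p under 0.05. Over all 419 detected probes 15 rose and 40 fell, so these trend counts mark nothing particular to the X-linked miRNAs. The highest SLRs on Day 8 were those of miR-2137 with 1.58 and miR-881* with 0.79, the last with a Day 2 signal under the threshold. The lowest were those of miR-106a with -1.37 and miR-20b with -1.27, the last under the threshold on Day 8, both members of a cluster related to the growth-promoting miR-17 to miR-92 family.

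A short list of miRNAs known to respond to growth factors or neuronal activity was set beside the members. miR-132, induced through CREB in neurons, had background-subtracted intensities of 677, 1434, 1414 and 1723 on Days 2, 4, 6 and 8 and an SLR of 1.08 on Day 8. miR-134, which acts in dendrites, had 131, 286, 224 and 304 and an SLR of 0.64, with Days 2, 4 and 6 under the threshold. miR-21 had 372, 432, 251 and 288 and an SLR of -0.34, with Days 6 and 8 under the threshold, and no probe carried the exact name miR-212. The probe of its arm miR-212-3p, added after its values were seen, had 527, 1100.3, 890 and 1045 and an SLR of 0.69 on Day 8 (limma adjusted p of its trend = 0.206). By the limma trend, 0 of the 3 miRNAs matched by exact name had an adjusted p under 0.05. Only 13.1% of all detected probes had one in either direction, so a count over 3 says little about the list. The 3 had median SLRs of 0.52, 0.66 and 0.64 for Days 4, 6 and 8, which on each day is the value of miR-134 alone. On the same days miR-132 had 0.81, 1.28 and 1.08, and miR-21 had -0.01, -0.15 and -0.34, so the list did not move together. With miR-212-3p the medians were 0.64, 0.80 and 0.67.

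All 4 neuronal marker miRNAs were detected in the cultures, with miR-124 and miR-9 in saturation. Of the others, miR-128 had 4620, 7474, 5234 and 6320 on Days 2, 4, 6 and 8, with an SLR of 0.27 on Day 8. On the same days miR-138 had 4267, 8529, 7298 and 10791, with an SLR of 1.24 on Day 8 (limma adjusted p of its trend = 0.0367). Because miR-221 and miR-222 are known from endothelium, the endothelial pair miR-126-3p and miR-126-5p was looked at. Of the pair 0 of 2 were detected, and their summed intensity was 107, 155, 136 and 133 for Days 2, 4, 6 and 8. On these days miR-126-3p had 63.8, 135, 99.4 and 116, higher on each later day than on Day 2. In contrast, miR-126-5p had 43.1, 20.3, 36.8 and 17.5, lower on each later day. Summed markers of blood cells were lower on the later days. The myeloid list of 3 summed to 522, 429, 203 and 119 on Days 2, 4, 6 and 8, with 1 detected. That one, miR-142-3p, had 471, 342, 132 and 82.9, and miR-142-5p had 86.5, 69.4, 42.7 and 19.9. The third, miR-223, had -35.6, 17.8, 28.0 and 16.1 and was not lower on the later days. The erythroid list of 2 summed to 836, 594, 227 and 142, with 1 detected. The astrocyte and mesenchymal list of 4 summed to 578, 620, 461 and 791, with miR-214 the one detected. Of the oligodendrocyte list, miR-338-3p was detected on all days at 957, 1515, 801 and 1234, with an SLR of 0.45 on Day 4, 0.09 on Day 6 and 0.21 on Day 8. No probe carried the exact name miR-219, and the arm miR-219-5p, added after its values were seen, had 460, 454, 264 and 349. Their part in the values of the members was not tested, and in pooled RNA fewer cells of a type and less RNA per cell cannot be told apart.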

How the data were processed

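The deposited scanner files hold, for each array and spot, the fluorescence intensity in the Hy3 channel and its local background, the percent of saturated pixels and the signal in the red channel, as the authors obtained them with an InnoScan 700 scanner and Mapix 4.5.0 on arrays designed for miRBase 16.0. The deposited value table holds background-subtracted intensity and equals the mean over spots of median foreground minus background. In R 4.3.3 with limma 3.58.1, mean foreground intensities were corrected by normexp (offset 50), quantile normalised over miRNA spots and averaged over the 4 spots. Probes of at least 300 on 1 array or more were tested, 419 in all. The trend was fitted with lmFit and eBayes on day and adjusted by Benjamini-Hochberg, and was tested on simulated data first. A single array for each day limits the precision. Named miRNAs were the members, those sharing the seed, passenger arms, the 5 nearest profiles, the growth factor list and the highest 2 and lowest 2 X-linked SLRs on Day 8; markers beyond these were named with their lists. The members and lists were chosen with earlier results of these data known. miRNAs were matched to RefSeq by name. Alternatives were other backgrounds, scalings, summaries, filters and omitted arrays.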

Additional observations from a re-analysis of the deposited data

How the results depend on the processing

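The values of miR-222 and miR-221 are given for Days 4, 6 and 8 where they moved by more than the SD between spots, and the cause was not tested. Without background correction miR-222 had SLRs of 0.87, 1.17 and 1.10 and miR-221 of 0.66, 0.97 and 0.82. With background subtraction they were 0.95, 1.27 and 1.20 for miR-222 and 0.70, 1.12 and 0.92 for miR-221. With the deposited value table they were 0.96, 1.27 and 1.24 for miR-222 and 0.67, 1.10 and 0.92 for miR-221. Endogenous controls moved miR-222 on Day 8 to 1.12. Spike-in controls gave 0.26, 0.32 and 0.84 for miR-222, and for miR-221 they turned Day 4 to -0.14 and Day 6 to -0.074, with 0.29 on Day 8. Median scaling gave 0.52, 0.87 and 0.80 for miR-222 and 0.12, 0.47 and 0.25 for miR-221. Cyclic loess gave 0.64, 0.95 and 0.91 for miR-222. Without normalisation miR-222 had 0.52, 0.29 and 0.70, and miR-221 had 0.13 and 0.15 on Days 4 and 8 and turned to -0.10 on Day 6. Scalings combined with background subtraction were added after seeing the data. There, endogenous controls gave 1.33, 1.64 and 1.72 for miR-222 and 1.15, 1.49 and 1.42 for miR-221. Spike-in controls gave 0.54, 0.61 and 1.19 for miR-222, and 0.46 and 0.88 for miR-221 on Days 6 and 8. Median scaling gave 0.94, 1.33 and 1.26 for miR-222 and 0.76, 1.17 and 0.96 for miR-221. Cyclic loess gave 0.96, 1.33 and 1.27 for miR-222 and 0.77, 1.18 and 0.99 for miR-221. No normalisation gave 1.12, 0.92 and 1.36 for miR-222, and 0.94 and 1.06 for miR-221 on Days 4 and 8. Leaving out 1 spot at a time kept miR-222 within 0.72 to 0.78, 1.02 to 1.04 and 0.96 to 0.98, and miR-221 within 0.44 to 0.53, 0.73 to 0.84 and 0.59 to 0.68.

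The limma slope of miR-222 came past the threshold with endogenous controls (0.18, adjusted p = 0.0259), median scaling (0.14, 0.0268) and cyclic loess (0.15, 0.0282). Combined with background subtraction the same scalings gave 0.27 (0.00975), 0.21 (0.0328) and 0.21 (0.0410). That of miR-221 did so only with endogenous controls and background subtraction (0.23, adjusted p = 0.0164). Over all alternatives the adjusted p ran between 0.00975 and 0.676 for miR-222 and between 0.0164 and 0.945 for miR-221, and no slope changed sign. Over all 419 detected probes 15 slopes rose and 40 fell past the threshold, against 53 and 22 with endogenous controls, 83 and 14 with endogenous controls and background subtraction, 4 and 3 with spike-in controls, 34 and 58 with median scaling, 41 and 45 with cyclic loess and 4 and 21 without normalisation. Leaving out 1 day gave slopes between 0.05 and 0.26 for miR-222, between 0.04 and 0.20 for miR-221 and between 0.01 and 0.06 for their difference. With a filter of 300 on every array miR-221 was not tested. No paired analysis was possible because each day has 1 array. Signals near the threshold, as those of miR-221, are limited by background, and 1 array a day gives no measure of the spread between cultures.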
